A study of Oryctolagus cuniculus with 4 samples.

Results

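KDR and ESM1 are a receptor of vascular endothelial growth factor (VEGF) and a gene that VEGF induces, and their transcripts were followed through single cells of the rabbit bladder mucosa. They were chosen by symbol, as 2 of the 18475 genes of the count tables, of which 9771 carry a symbol, and have the identifiers ENSOCUG00000005062 (KDR) and ENSOCUG00000011604 (ESM1). KDR encodes VEGF receptor 2, a receptor tyrosine kinase of endothelial cells that binds VEGFA and, after processing, VEGFC and VEGFD, and carries most of the growth and migration signal of VEGF in blood vessels. ESM1 encodes endocan, a dermatan sulfate proteoglycan that endothelial cells secrete, and is known as a VEGF-induced gene that is high in tip cells, the leading cells of vessel sprouts. In a sprout, VEGF signalling through KDR raises the NOTCH ligand DLL4 in the tip cell, and NOTCH in the neighbouring cells restrains their response to VEGF.

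Adult New Zealand rabbits were the source of 4 samples, 2 of normal bladder mucosa (Normal 1 and Normal 2) and 2 taken 10 days after a focal piece of mucosa was cut out (Injury 1 and Injury 2), when new urothelium had just closed over the wound. The sources used here name no transgene or strain difference between the groups. Resection came with anaesthesia, opening and suture of the bladder and a transurethral catheter. No sham operation is stated for the normal samples. Each sample was 1 droplet library made with 3′ chemistry that counts unique molecular identifiers (UMIs), and the study calls the samples of a group biological replicates without naming the rabbit behind each, so p-values measure the spread between these samples. The tissue is labelled as urothelium, but the epithelial-like cells were outnumbered by stromal and endothelial ones, and the cells described here are those of the vessels in and under the mucosa.

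The libraries held 28745017 to 47881609 UMIs each. After the limits on UMIs, genes and mitochondrial share, 21945 cells remained, with a median of 4814 UMIs per cell in Normal 1 and 6755 to 7186 in the other 3 samples. Normal 1 was thus the shallowest library, and it also lost the most barcodes to the mitochondrial limit, 1388 against 593 to 856. Any pair of libraries shared 8 to 13 cell barcodes. Clustering, which left KDR and ESM1 out of its genes, gave 5456 endothelial-like cells, with 1178 in Injury 1, 879 in Injury 2, 1783 in Normal 1 and 1616 in Normal 2. All 9 measured endothelial markers were present in them in every sample, among them CDH5 at 135 to 184 UMIs per 1000000 UMIs (CPM), PECAM1 at 822 to 1057 CPM and VWF at 1436 to 3795 CPM.

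KDR was an endothelial transcript in all 4 samples. Endothelial-like cells held 606 of 642 KDR UMIs in Injury 1, 848 of 884 in Injury 2, 904 of 949 in Normal 1 and 1578 of 1662 in Normal 2. These are 94.4% to 95.9% of the KDR UMIs from 15.9% to 41.4% of the cells. The summed KDR level in endothelial-like cells was 74.6 and 139 CPM in the injured and 93.0 and 127 CPM in the normal samples. The injured samples enclosed both normal ones.

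Outside the endothelial-like cells, KDR was close to 0 in the named classes other than the neutrophil-like one. Its pooled level was 0.168% of the endothelial one in T cell-like, 0.174% in macrophage-like, 0.479% in fibroblast-like, 0.611% in epithelial-like and 1.12% in smooth muscle and pericyte-like cells. The other 9 endothelial markers stood at a median of 0.565% to 1.27% of their endothelial level in those same 5 classes, and KDR was below that median in each of the 5. No KDR UMI was seen in 221 B or plasma cell-like, 106 mast cell-like or 117 glial-like cells, which allows a share of cells with a UMI of up to 1.36%, 2.83% and 2.56%. Neutrophil-like cells had 9 KDR UMIs in 7 of 213 cells, a pooled level of 46.8% of the endothelial one. Of these, 6 cells lay in Injury 1, where the median depth of neutrophil-like cells was 669 UMIs and 8 KDR UMIs made up 73.2 CPM.

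ESM1 was also mainly endothelial, with a wider range between samples. Endothelial-like cells held 303 of 416 ESM1 UMIs in Injury 1, which is 72.8%. They held 723 of 846 in Injury 2 (85.5%), 2959 of 3203 in Normal 1 (92.4%) and 4237 of 4619 in Normal 2 (91.7%). The level in these cells was 37.3 and 119 CPM in the injured samples against 304 and 342 CPM in the normal ones, and the groups did not overlap, which held for 37.2% of the 7561 genes tested in these cells.

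The ESM1 UMIs of other named classes lay in few cells. Fibroblast-like cells held 71, 48, 42 and 79 ESM1 UMIs in Injury 1, Injury 2, Normal 1 and Normal 2, in 11 to 22 cells each, and a single cell held 29, 7, 17 and 36 of them. Their pooled level was 1.62% of the endothelial one, above the 0.279% to 0.946% at which the 9 endothelial markers stood in fibroblast-like cells. In T cell-like cells of Injury 1, a single cell held 10 of 22 ESM1 UMIs, and in epithelial-like cells of Normal 2 a single cell held 18 of 28. The unnamed clusters held 8, 61, 191 and 247 ESM1 UMIs, of which the cycling cluster held 5, 38, 182 and 32. An unnamed cluster with raised endothelial markers, in which 98.3% of cells had a high doublet score, held 0, 16, 0 and 204.

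**Figure D1:**
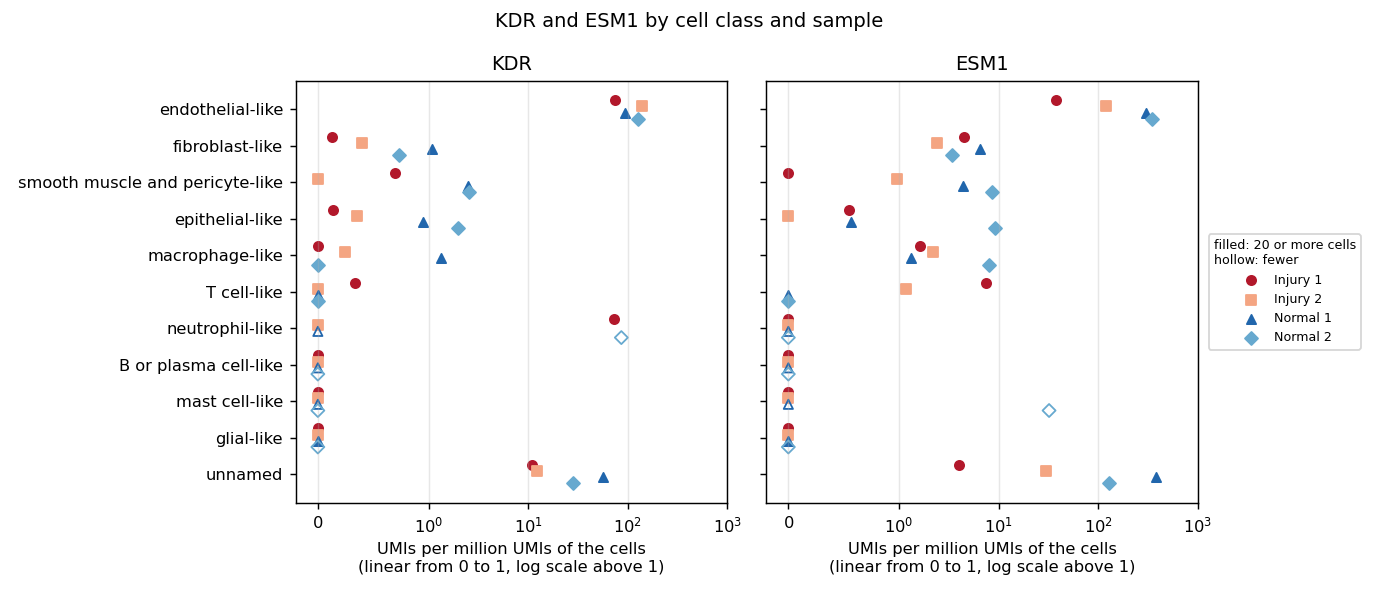
Level of KDR (left) and ESM1 (right) in each cell class, in UMIs per 1000000 UMIs summed over the cells of 1 sample, with 1 point a sample and hollow points for sums of fewer than 20 cells. Endothelial-like cells lie at 74.6 to 139 CPM for KDR and 37.3 to 342 CPM for ESM1, and the hollow neutrophil-like point of KDR rests on 1 UMI.

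Within the endothelial-like cells, both genes varied with vessel type, and ESM1 far more so. Clustered again, these cells fell into 7 sub-clusters. Sub-cluster 0 (1933 cells) was called capillary-like, a name that rests on 3 of 5 measured markers, BTNL9 and the basement membrane collagens COL4A1 and COL4A2, and ESM1 led its genes although clustering had not used it. Sub-clusters 1 and 4 were venous-like (SELP, SELE, VWF), sub-cluster 3 was arterial-like (BMX, GJA5, HEY1) and sub-cluster 6 was lymphatic-like (PROX1, CCL21, LYVE1). Sub-cluster 2 had 2 capillary markers raised and stayed unnamed, and its leading genes include the cystine transporter SLC7A11 and the chemokines CXCL9 and CXCL8. Sub-cluster 5, in which fibroblast and pericyte genes led and 58.2% of cells had a high doublet score, also stayed unnamed. The extent of the capillary-like name depended on the sub-clustering resolution. At 0.2 it covered a cluster of 2601 cells. At 0.8 it covered clusters of 568 and 539 cells, the larger of them led by SLC7A11.

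KDR was present in every sub-cluster. Its level was 160, 232, 169 and 168 CPM in capillary-like cells of Injury 1, Injury 2, Normal 1 and Normal 2, and it was 94.4, 203, 62.4 and 84.2 CPM in arterial-like cells. Venous-like cells had 37.3, 76.9, 30.8 and 46.3 CPM. In each sample the order of these 3 was capillary-like, arterial-like, venous-like. The unnamed sub-cluster 2 had 70.1, 133, 152 and 191 CPM. It lay above the capillary-like level in Normal 2 and above the arterial-like level in both normal samples, but below both in the injured samples. The ranges of the capillary-like and arterial-like cells over samples overlapped, and so did those of the arterial-like and venous-like cells, while capillary-like and venous-like cells did not overlap. Lymphatic-like cells, where KDR serves as a receptor of VEGFC, had 75.2 CPM in 38 cells of Injury 1 and 54.6 CPM in 59 cells of Injury 2, and too few cells in the normal samples for a level.

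ESM1 was highest in capillary-like cells. There it stood at 160, 434, 907 and 608 CPM in Injury 1, Injury 2, Normal 1 and Normal 2. Arterial-like cells had 45.3, 63.7, 44.4 and 218 CPM, and venous-like cells had 1.87, 2.30, 1.85 and 9.48 CPM. The order of these named types was the same as for KDR in every sample, and venous-like cells lay below the capillary-like and arterial-like ones with no overlap. Sub-cluster 2 had 5.35, 28.0, 216 and 345 CPM, below the arterial-like level in both injured and above it in both normal samples. Of the 9.48 CPM of venous-like cells in Normal 2, 25 of 27 UMIs came from 1 cell. No ESM1 UMI was found in 107 lymphatic-like cells, which allows a share of up to 2.80%. Capillary-like cells held 78.8% of the ESM1 UMIs of endothelial-like cells and 48.2% of the KDR UMIs, as 35.4% of the cells. Levels across clusters are a description, since the clusters were drawn from the same cells.

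**Figure D2:**
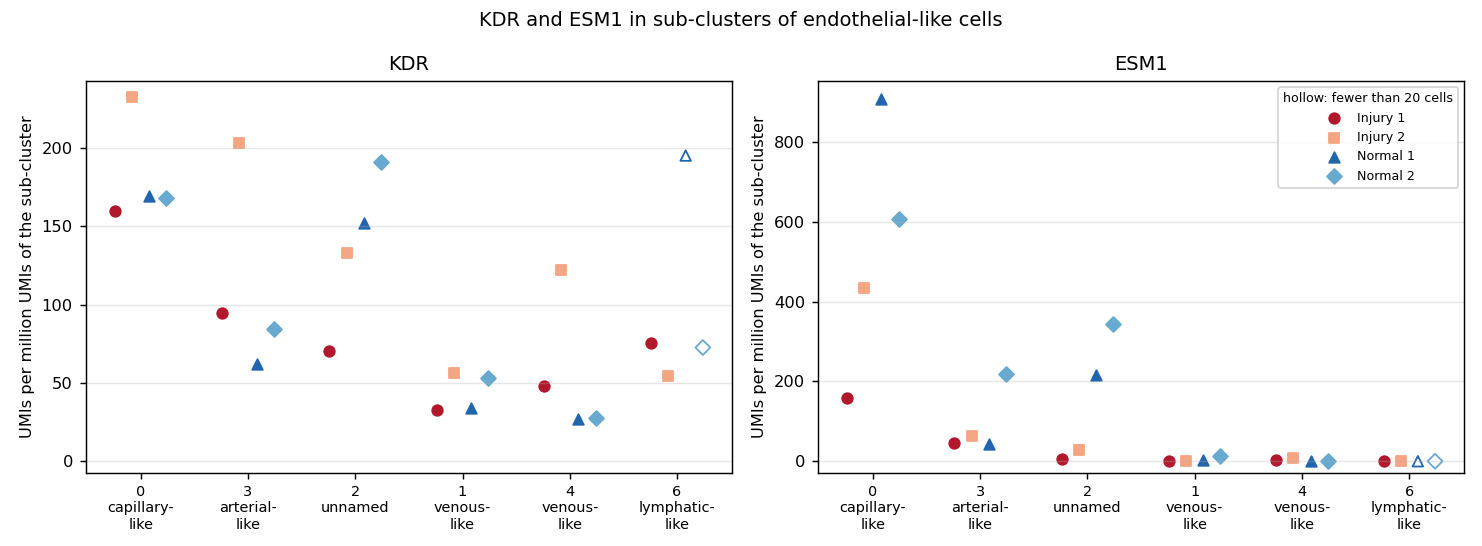
KDR (left) and ESM1 (right) in 6 of the 7 sub-clusters of endothelial-like cells, as UMIs per 1000000 UMIs summed over the cells of 1 sample, 1 point a sample, with hollow points under 20 cells and the unnamed sub-cluster 5 left out. ESM1 reaches 160 to 907 CPM in capillary-like cells and is at most 12.9 CPM in both venous-like sub-clusters, while KDR is at least 26.9 CPM in all of them.

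The UMIs of the 2 genes were spread differently over cells. A KDR UMI was found in 2151 of 5456 endothelial-like cells (39.4%, 95% Wilson interval 38.1% to 40.7%), most often as a single UMI, and no cell had more than 15. An ESM1 UMI was found in 946 cells (17.3%, 16.4% to 18.4%), with a median of 4 UMIs in those cells, 447 cells at 5 or more, and 203 in the richest one. The richest 10% of cells held 92.2% of the ESM1 and 50.2% of the KDR UMIs. The intervals cover counting error only.

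The first question of the design was whether the receptor and its target differ between injured and normal mucosa. In endothelial-like cells KDR did not pass the test, with 107 ± 45.7 CPM in the injured and 110.1 ± 24.3 CPM in the normal samples (mean ± SD, n = 2 each). Its log2 fold change, injured over normal, was -0.15 (SE 0.38, edgeR quasi-likelihood test, adjusted p = 0.968), and its sign turned when Injury 1 (0.24) or Normal 2 (0.23) was left out. ESM1 was 78.0 ± 57.6 CPM in the injured and 323 ± 26.5 CPM in the normal samples (mean ± SD, n = 2 each). Its log2 fold change was -2.15 (SE 0.55), a fitted level 4.44 times higher in normal samples, and with an edgeR adjusted p of 0.537 it did not pass the threshold over all genes either.

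No gene passed edgeR in this comparison (0 of 7561, 0% called), 528 genes had an unadjusted p under 0.05 and DESeq2 called 57. ESM1 was among the latter, with a DESeq2 adjusted p of 0.00418, against 0.00418 to 1 over all 14 alternatives. Its log2 fold change was between -3.20 and -1.53 in all of them, so the direction held in each, but its size moved by more than 1.5 times when 1 sample was left out. The lowest value came without Injury 2 and the highest without Injury 1.

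**Figure D3:**
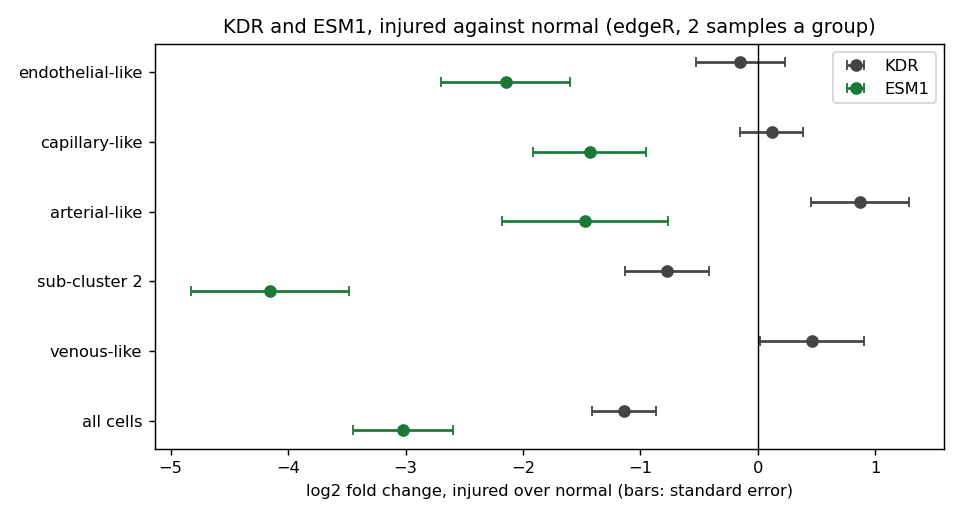
Log2 fold change of KDR and ESM1, injured over normal, in 6 sets of cells, with bars of 1 standard error from edgeR and 2 samples a group. ESM1 lies below 0 in each set where it was tested, from -1.43 in capillary-like cells to -4.16 in sub-cluster 2, and KDR lies on both sides of 0. None of these values passed the adjusted threshold.

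Taken over all cells of a suspension, both genes were lower in both injured samples than in both normal ones. The same was so for 19.7% of all genes tested there, and 43.3% had groups that did not overlap in either direction. KDR was 14.4 and 20.2 CPM in the injured against 38.3 and 37.5 CPM in the normal samples, a log2 fold change of -1.14 (SE 0.27, edgeR adjusted p = 0.24). ESM1 was 9.34 and 19.4 against 129 and 104 CPM, a log2 fold change of -3.02 (SE 0.43, edgeR adjusted p = 0.136). In such a sum fewer cells of a type and less RNA per cell cannot be told apart, and endothelial-like cells were 19.4% and 15.9% of the injured against 41.4% and 26.8% of the normal cells. edgeR called 1 of 10475 genes here (0.00955%) and DESeq2 444, KDR (adjusted p = 0.0318) and ESM1 (7.59e-09) among them, and over the 8 alternatives the adjusted p ran from 0.0318 to 1 for KDR and from 7.59e-09 to 0.2 for ESM1.

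The mix of endothelial sub-clusters also differed between samples. Capillary-like cells, which hold most ESM1, were 24.2% and 28.0% of the endothelial-like cells in the injured samples and 34.5% and 48.6% in the normal ones. With every sample set to 1 fixed mix of the 7 sub-clusters, a description added after the data had been seen, ESM1 stood at 57.3 and 148 CPM in the injured and 323 and 275 CPM in the normal samples. The ratio of the group means, normal over injured, was 4.14 with each sample's own mix and 2.92 at the fixed mix. For KDR it was 1.03 and 0.9.

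Within capillary-like cells the ESM1 levels given above did not overlap between groups, as was so for 40.4% of the genes tested there. The log2 fold change was -1.43 (SE 0.48, edgeR adjusted p = 0.542), and KDR in the same cells had one of 0.12 (SE 0.27, adjusted p = 0.93). No gene of 5653 passed edgeR (0%), 487 had an unadjusted p under 0.05 and DESeq2 called 25. ESM1 stayed lower in all 10 alternatives, from -2.39 without Injury 2 to -0.87 without Injury 1, with adjusted p from 3.58e-04 to 1. KDR turned to -0.24 without Injury 2.

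Sub-cluster 2 held the widest ESM1 difference, but may hold more than 1 cell type. At resolution 0.8 its leading genes SLC7A11 and THBS1 led a capillary-like cluster of 88, 68, 181 and 231 cells (Injury 1, Injury 2, Normal 1, Normal 2). Its leading genes CXCL9 and SMAP2 led an unnamed cluster of 177, 111, 102 and 78 cells with 5 of 6 venous markers raised. The mix within sub-cluster 2 was not tested. Sub-cluster 2 had 9 ESM1 UMIs in 233 cells of Injury 1 and 32 in 151 cells of Injury 2, against 288 in 206 cells of Normal 1 and 706 in 232 cells of Normal 2. These are 5.35 and 28.0 against 216 and 345 CPM, a log2 fold change of -4.16 (SE 0.67, edgeR adjusted p = 0.151), in a fit that was added after the data had been seen. The edgeR test called 3 of 5154 genes in these cells (0.0582%), and over 8 alternatives the ESM1 value ran from -5.74 without Injury 2 to -3.31 without Injury 1. With all 4 samples, ESM1 did not pass in the main fit but passed without a filter on low counts, with DESeq2 and with the replicate block. KDR was 70.1 and 133 against 152 and 191 CPM there, with a log2 fold change of -0.77 (SE 0.36, edgeR adjusted p = 0.601), which moved to -1.33 without Injury 2, -0.35 without Injury 1 and -0.97 (adjusted p = 0.0107, against 0.0107 to 0.999 over 8 alternatives) without Normal 1.

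In arterial-like cells KDR pointed the other way, with 94.4 and 203 CPM in the injured against 62.4 and 84.2 CPM in the normal samples. Its log2 fold change was 0.87 (SE 0.42, edgeR adjusted p = 0.59), and leaving out Injury 2 brought it to 0.16, Injury 1 to 1.32 and Normal 2 to 1.21 (adjusted p = 0.00158, against 0.00158 to 0.997 over 10 alternatives). ESM1 in these cells rested on Normal 2, with a log2 fold change of -1.47 (SE 0.71, edgeR adjusted p = 0.59) that became 0.25 without it and -2.24 without Normal 1 (adjusted p = 2.2e-13, against 2.2e-13 to 1 over 10 alternatives). edgeR called 0 of 5090 genes (0%), 469 had an unadjusted p under 0.05 and DESeq2 called 29. In venous-like cells KDR had a log2 fold change of 0.46 (SE 0.44, edgeR adjusted p = 0.999), which became -0.16 without Injury 2, 0.90 without Injury 1, 0.09 without Normal 1 and 0.92 without Normal 2, and ESM1 was too low for the test. There edgeR called 0 of 6141 genes (0%), 274 had an unadjusted p under 0.05 and DESeq2 called 9.

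The ESM1 difference was also read as the share of cells with a UMI. With each cell thinned to 1000 UMIs, an ESM1 UMI was found in 1.96% and 5.03% of endothelial-like cells of the injured and in 12.7% and 14.7% of the normal samples. The difference of the means was -10.2 percentage points (exact permutation test, two-sided, p = 0.33, the smallest that 2 samples against 2 allow). The groups did not overlap, as was so by level for 37.2% of the genes tested in these cells. KDR was found in 7.64% and 12.7% against 8.55% and 12.1% of cells, with p = 1 by the exact permutation test. From 1 to 10 cells a sample were too shallow and were left out.

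Fibroblast-like cells, in which ESM1 stood above the range of the endothelial markers, gave a comparison level for this measure but not a clean background for ESM1. Thinned likewise, 0.168% to 0.309% of them had an ESM1 UMI and 0.0128% to 0.0967% a KDR UMI. The venous-like cells, with an ESM1 UMI in 0.159% to 0.386%, were within or next to that range. Without thinning, an ESM1 UMI was found in 5.09% (95% Wilson interval 3.98% to 6.5%) and 9.67% (7.89% to 11.8%) of endothelial-like cells of the injured and in 20.2% (18.4% to 22.2%) and 27.2% (25.1% to 29.5%) of the normal samples. The fibroblast-like cells had 0.651% to 1.08%, at median depths of 5088 to 8423 UMIs against 4666 to 6454 in endothelial-like cells. The cells with an ESM1 UMI held a mean of 5.05 and 8.51 ESM1 UMIs in the injured and 8.2 and 9.63 in the normal samples.

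Set against the receptor within each sample, ESM1 gave 0.5 and 0.853 UMIs per KDR UMI in the endothelial-like cells of the injured samples and 3.27 and 2.69 in the normal ones. Each transcript gives at most 1 end tag, so no correction for length was made, but the 2 genes may be captured unequally and the ratio is read only between samples. On the scale log2(CPM + 10), ESM1 minus KDR was -0.53 ± 0.44 in injured and 1.48 ± 0.18 in normal samples (mean ± SD, n = 2 each), a difference of -2.01 (exact permutation test, two-sided, p = 0.33, the smallest possible). In capillary-like cells alone the difference was -1.64, with 1 and 1.87 ESM1 UMIs per KDR UMI against 5.36 and 3.61.

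The second question was whether the same cells hold both transcripts. Among endothelial-like cells both were found in 41 cells of Injury 1, 55 of Injury 2, 191 of Normal 1 and 292 of Normal 2. Within 5 strata of depth, 21.4, 40.3, 110.0 and 215.0 such cells would be found if detection of either gene did not depend on the other. The Mantel-Haenszel odds ratio over these strata was 4.26, 2.23, 3.65 and 2.82, above 1 in 4 of 4 samples (geometric mean 3.15, exact sign-flip permutation test over samples, two-sided, p = 0.13, the smallest that 4 samples allow). A KDR UMI was found in 68.3%, 64.7%, 52.9% and 66.4% of the cells with ESM1 and in 32.6%, 45.5%, 25.7% and 40.8% of the cells without it. The log2 odds ratio did not separate the groups, at a mean of 1.63 in the injured and 1.68 in the normal samples.

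The cells with ESM1 were not spread evenly over the sub-clusters. Of the cells with both transcripts, 30, 41, 156 and 207 were capillary-like in Injury 1, Injury 2, Normal 1 and Normal 2. Of the 946 cells with ESM1, 77.3% were capillary-like, where KDR was above its arterial-like and venous-like levels in every sample, 10.5% were in sub-cluster 2 and 7.29% were arterial-like. Among capillary-like cells alone the odds ratio was 3.51 in Injury 1 and 1.1, 1.49 and 1.46 in Injury 2, Normal 1 and Normal 2 (geometric mean 1.7, exact sign-flip permutation test, p = 0.13). The mean log2 odds ratio of 0.77 came to 0.42 without Injury 1, which has 38 capillary-like cells with ESM1.

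The level of KDR followed the same pattern. Summed over cells with an ESM1 UMI, KDR was 185, 236, 190 and 185 CPM in Injury 1, Injury 2, Normal 1 and Normal 2, and over the cells without one it was 68.3, 129, 69.5 and 104 CPM. KDR was higher in the cells with ESM1 in 4 of 4 samples and the 2 sets did not overlap. The share of all genes with such a pattern was not counted. The log2 fold change, with the sample as a block, was 1.07 (SE 0.115, edgeR adjusted p = 1.09e-05), in a test that called 299 of 7274 genes higher (4.11%) and 401 lower (5.51%), 9.62% in all. It was 1.07 with depths matched. In capillary-like cells alone it was 0.33 (SE 0.1, edgeR adjusted p = 0.124), higher in 4 of 4 samples, where 26 of 5427 genes were called higher (0.479%) and 37 lower (0.682%), 1.16% in all.

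**Figure D4:**
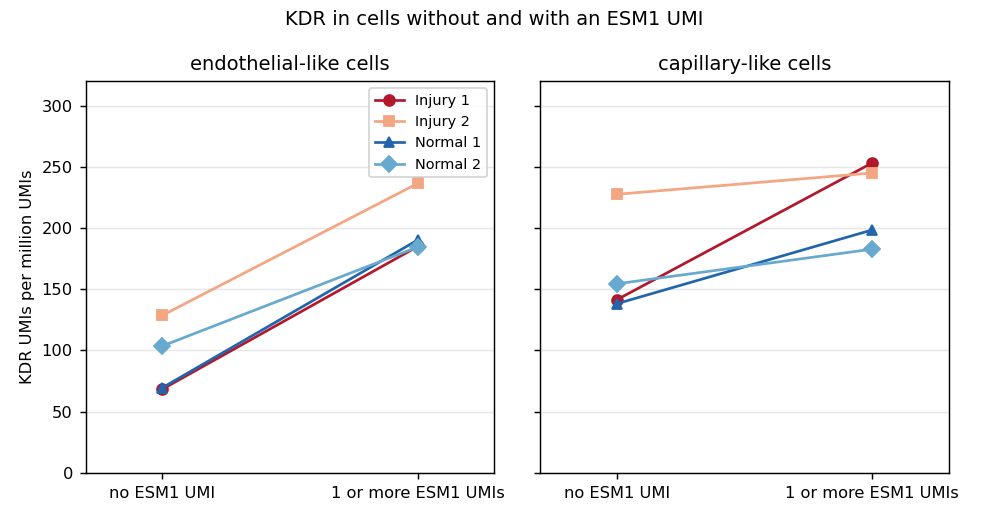
KDR level, in UMIs per 1000000 UMIs, summed over cells without (left point) and with (right point) an ESM1 UMI, 1 line a sample, in all endothelial-like cells and in capillary-like cells. All 4 lines rise in both panels, by 1.78 to 2.74 times in endothelial-like and by 1.08 to 1.79 times in capillary-like cells.

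Of the called genes, those with a symbol, at least 20 CPM on the higher side and the same direction in all samples were ranked. Among them, the 10 largest rises in cells with ESM1 included channel, guidance receptor and basement membrane genes. The potassium channel subunit ABCC9 had the largest of these rises, from a mean of 6.09 to 38.2 CPM, a log2 fold change of 2.59 (SE 0.325, edgeR adjusted p = 4.44e-05). ABCC9 is also a marker of pericytes. The netrin receptor UNC5B rose from 50.6 to 174 CPM (1.67), the chemokine receptor CXCR4 from 20.6 to 62.9 CPM (1.65), the laminin chain LAMB1 from 120 to 352 CPM (1.53) and the matricellular protein SPARCL1 from 367 to 1105 CPM (1.52). CCL14, BTNL9, AAAS, the intermediate filament nestin (NES) and the gelatinase MMP2 completed the 10 largest rises, with log2 fold changes of at least 1.36. SPARCL1, LAMB1, CXCR4, UNC5B and MMP2 are also leading genes of the capillary-like sub-cluster, and BTNL9 is a marker that named it. That sub-cluster held 77.3% of the cells with ESM1 but 35.4% of all endothelial-like cells. The rises over all endothelial-like cells thus also carry the difference between sub-clusters. Of the 10, ABCC9, UNC5B, LAMB1, SPARCL1 and NES also passed within capillary-like cells.

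The 5 largest falls among the genes ranked by the same limits included lymphatic and venous genes. MMRN1, a lymphatic gene, had 0 UMIs in cells with ESM1 and 1501 in those without (63.3, 153, 0.77 and 19.2 CPM in Injury 1, Injury 2, Normal 1 and Normal 2), so that in Normal 1 it was near 0 in both. The lymphatic chemokine CCL21 had 5 against 22075 UMIs, and in Normal 1 it was at 0 CPM in both. All 107 lymphatic-like cells lacked an ESM1 UMI and lie on the side without it, so falls of lymphatic genes were set by the split. Only 1.11% of venous-like cells had an ESM1 UMI, so falls of venous genes also carry the difference between sub-clusters. CADM3, GUCY1A1 (a subunit of the nitric oxide receptor) and ADH6 (an alcohol dehydrogenase) had log2 fold changes of -4.22, -3.33 and -3.30. ADH6, a leading gene of the venous-like cells, was also lower within capillary-like cells, at -1.40 (SE 0.294, edgeR adjusted p = 0.0137).

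A list of genes of VEGF signalling and of the tip cell was read in the same comparison. Of its 27 tested genes other than KDR and ESM1, 7 were called higher and 4 lower in cells with ESM1, beside 4.11% higher and 5.51% lower over all genes, and the median log2 fold change of the list was 0.28 against -0.02 over all genes. The 7 were UNC5B and CXCR4, the NOTCH ligand DLL4 (1.00), the ligand VEGFA (0.83), the basement membrane protein NID2 (0.80), the NOTCH target HEY1 (0.57) and the receptor phosphatase PTPRB (0.32), which acts on KDR and TEK. The 4 were the angiopoietin receptor TEK (-0.82), the nuclear receptor NR4A2 (-0.50), the caveolar protein CAV1 (-0.47) and the NOTCH ligand JAG1 (-0.31). DLL4 was 38.8, 43.3, 31.2 and 44.0 CPM with ESM1 and 17.6, 20.04, 13.2 and 24.4 CPM without it, in Injury 1, Injury 2, Normal 1 and Normal 2. Within capillary-like cells, where 1.16% of all genes were called, 2 of the list were, UNC5B (0.77) and CAV1 (-0.39), while DLL4 stood at 0.46 (SE 0.165, edgeR adjusted p = 0.233).

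The same list was read for injured against normal endothelial-like cells. Of 54 genes written, 32 matched a symbol and 28 had enough UMIs for the test. edgeR called 0 of the 28 (0% of all genes), 4 had an unadjusted p under 0.05, and DESeq2 called VEGFC alone. The median log2 fold change of the list was 0.09, against -0.01 over all genes. In 14 of the 28 the groups did not overlap, 12 of them higher in the injured samples, and over all genes tested this was so for 37.2%, with 24.4% higher in the injured samples. FLT1, FLT4, NRP1 and ANGPT2 were not analysed here.

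Among the ligands, VEGFA was 20.1 and 25.0 CPM in injured and 34.1 and 35.9 CPM in normal endothelial-like cells, a log2 fold change of -0.73 (SE 0.249, edgeR adjusted p = 0.668). VEGFC, which acts on FLT4 and KDR, was 46.4 and 39.1 against 13.1 and 17.4 CPM, one of 1.39 (SE 0.294, edgeR adjusted p = 0.498, 0.0373 with DESeq2, 0.0373 to 1 over 14 alternatives). PGF, a ligand of FLT1, was 3.32 and 7.88 against 0.51 and 2.34 CPM, one of 1.78 (SE 0.807, edgeR adjusted p = 0.725), which became 3.42 without Normal 2, 1.05 without Injury 2 and 1.05 without Normal 1. None of the 3 passed edgeR, and the groups did not overlap in any of them, as was so for 37.2% of all genes tested in these cells.

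The other parts of the pathway showed the following. The co-receptor NRP2 had 0.10. The 8 genes of KDR signalling ran from -0.51 for the exchange factor VAV3 to 0.74 for the phosphatase PTPRJ (0.41 to 1.19 with 1 sample left out), with NOS3, which makes nitric oxide, at -0.22 and PTPRB at -0.19. The 9 VEGF-induced or tip-cell genes ran from -1.06 for CXCR4, which became -0.10 without Normal 2, -0.66 without Injury 1, -1.62 without Normal 1 and -1.57 without Injury 2, to 0.76 for NR4A1 (0.46 to 1.14 with 1 sample left out), with DLL4 at -0.31 (18.7 and 22.3 CPM against 16.7 and 30.2 CPM), which became 0.33 without Normal 2, and UNC5B at -0.21, which became 0.13 without Injury 1. The tip-cell peptide APLN had 0, 0, 1 and 6 UMIs and was too low for the test. Among the 4 NOTCH genes the target HES1 was 539 and 543 against 305 and 306 CPM (0.74, SE 0.218) and JAG1 was 460 and 353 against 191 and 245 CPM (0.80, SE 0.288), both with unadjusted p under 0.05 and edgeR adjusted p of 0.583 and 0.684. The target HEY1 was 148 and 134 against 65.4 and 114 CPM (0.54, SE 0.355, edgeR adjusted p = 0.836), which became 0.13 without Normal 1 and 1.14 without Normal 2. The target HEY2 was 3.08 and 1.97 against 4.32 and 1.86 CPM (-0.32, SE 0.527, edgeR adjusted p = 0.939), which turned to 0.28 without Normal 1.

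**Figure D5:**
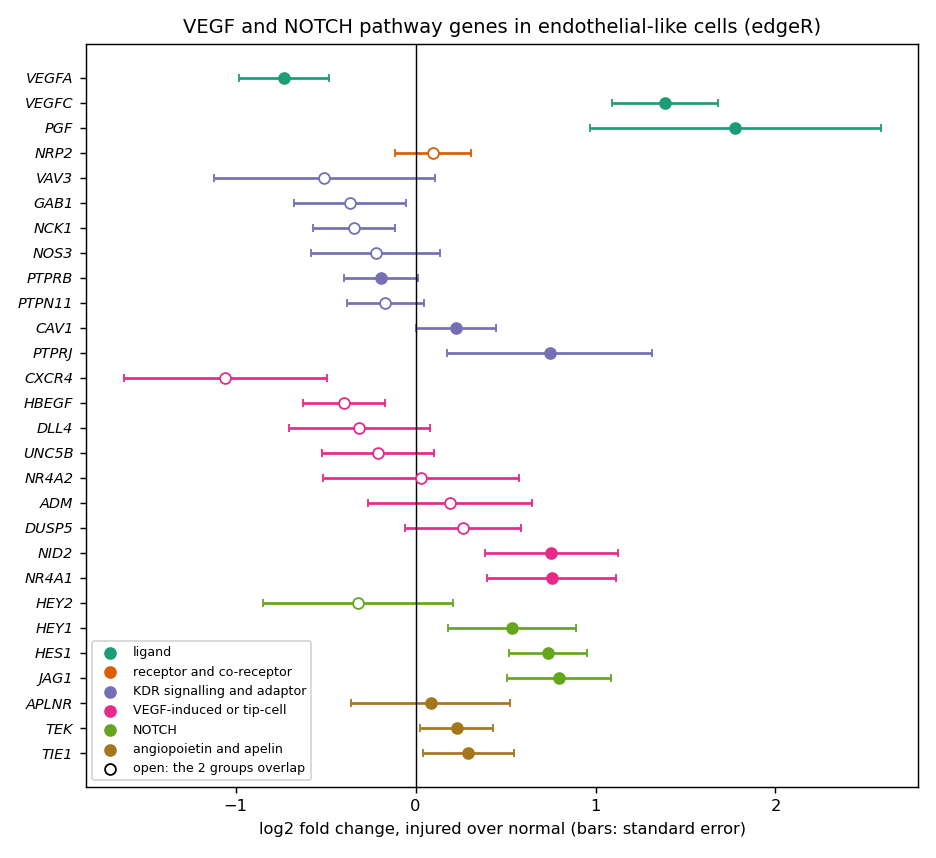
Log2 fold change, injured over normal, of the 28 tested genes of VEGF signalling, NOTCH and angiopoietin receptors in endothelial-like cells, with bars of 1 standard error from edgeR and open circles where the 2 groups overlap. Values run from -1.06 (CXCR4, -0.10 without Normal 2) to 1.78 (PGF), and none passed the adjusted threshold.

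The ligand VEGFA was found in more classes than the receptor, at a higher level in fibroblast-like than in endothelial-like cells of every sample. In fibroblast-like cells it was 65.3, 65.3, 125 and 62.2 CPM in Injury 1, Injury 2, Normal 1 and Normal 2, and in smooth muscle and pericyte-like cells 44.4, 46.3, 54.5 and 21.8 CPM. In epithelial-like cells it was 40.6 and 37.0 CPM in the injured against 81.9 and 57.3 CPM in the normal samples, a log2 fold change of -1.08 (SE 0.227, edgeR adjusted p = 0.0787, 0.0143 to 0.515 over 8 alternatives), where edgeR called 122 of 7041 genes (1.73%). The fibroblast-like value was -0.37 (SE 0.34, edgeR adjusted p = 0.767), which turned to 0.13 without Normal 1. The macrophage-like value of -1.03 (SE 0.628, edgeR adjusted p = 0.543) turned to 0.59 without Normal 1 and came to -1.76 (adjusted p = 0.00686, against 0.00686 to 1 over 8 alternatives) without Normal 2. In smooth muscle and pericyte-like cells the value was 0.31 (SE 0.407, edgeR adjusted p = 0.859), with -0.19 without Normal 2 and 1.02 (adjusted p = 0.00354, against 0.00354 to 0.999 over 8 alternatives) without Normal 1. edgeR called no gene in the fibroblast-like, macrophage-like or smooth muscle and pericyte-like cells (0%), where 927, 721 and 612 genes had an unadjusted p under 0.05 and DESeq2 called 259, 56 and 54. In T cell-like cells, where edgeR called 1 of 4535 genes (0.0221%), VEGFA was too low for the test.

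Among the genes with a symbol and at least 20 CPM in endothelial-like cells, 2677 were compared with each of the 2 by their levels over 24 sums of sub-cluster and sample. Those closest to KDR were CXCR4 (Pearson r = 0.878), NDST1 (0.862), COL4A1 (0.857), MKRN2 (0.825) and C1orf54 (0.824). Those closest to ESM1 were SIPA1L2 (0.895), SPARCL1 (0.851), ST8SIA4 (0.84), ACE (0.82) and NR2C1 (0.819). ESM1 and KDR correlated with each other at 0.726, which placed ESM1 at rank 24 for KDR and KDR at rank 25 for ESM1. The 24 sums share 4 libraries and 7 sub-clusters and are not independent, so these values are a description.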

How the data were processed

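UMI counts per gene and cell barcode were used as deposited. Per the labels and the study's methods, the authors made these counts from 10x 3′ libraries with Cell Ranger 6.0.1, and the genome build was not given in the sources used here. Barcodes with at least 500 UMIs, 200 genes and at most 15% of UMIs from 13 mitochondrial genes were kept. Integration and clustering used Seurat 5.3.0 under R 4.3.3 (canonical correlation, 2000 variable genes with KDR and ESM1 left out, 30 components, resolution 0.8), and endothelial-like cells were clustered again at 0.4. Clusters were named from written marker lists. The reference level for raised markers and a rule for cycling cells were changed after a first naming had been seen. Doublets were scored with Scrublet (scanpy 1.11.5) and removed only as an alternative.

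Counts were summed per sample and cell set and tested with edgeR 4.0.16 (quasi-likelihood, TMM, filterByExpr, Benjamini-Hochberg adjustment over all genes tested, threshold 0.05). Cells with and without an ESM1 UMI were compared with the sample as a block. DESeq2 1.42.0, no filter on low counts, other cell filters and clusterings, and leaving out each sample were alternatives. Levels are UMIs per 1000000 UMIs of a sum (CPM) and carry no correction for length. Shares were compared after thinning each cell to 1000 UMIs by expectation. A count of 0 was given an upper limit of 3 counts, and intervals cover counting error only.

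Genes were named as KDR, ESM1 and members of a written VEGF pathway list. The 10 largest rises and 5 largest falls between cells with and without ESM1 were added. They were taken among called genes with a symbol, at least 20 CPM on the higher side and the same direction in all samples. The 5 genes most like each of KDR and ESM1 completed the names. CXCL8 and CXCL9, ADH6 among venous-like cells and the markers that name a sub-cluster were named as cluster descriptions after their values were seen. The members and lists were chosen with earlier results of these data known. On simulated counts for the comparison of injured and normal endothelial-like cells, run on 7396 genes, 16% of 2-fold and 75.5% of 4-fold changes were recovered. For cells with and without ESM1, on 7016 genes, 72.4% and 96.9% were recovered. Each simulated gene was given the dispersion of the fitted trend, with no spread of its own around it. The rates also depend on the number of changed genes planted, so they may be too high for the real data.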

Additional observations from a re-analysis of the deposited data

Results flagged for a closer look

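KDR pointed in opposite directions in 2 sets of endothelial-like cells. In arterial-like cells both injured samples were above both normal ones, with a log2 fold change of 0.87, and in sub-cluster 2 both were below, with one of -0.77, and with 1 sample left out these ran from 0.16 to 1.32 and from -1.33 to -0.35. Neither passed edgeR over all 4 samples. Groups that do not overlap were found for 41.8% of the genes tested in arterial-like cells and 40.3% in sub-cluster 2. The log2 level in arterial-like cells minus that in sub-cluster 2 was 0.424 and 0.607 in the injured and -1.27 and -1.17 in the normal samples, a difference of 1.74. The pair was picked for these opposite directions, so the difference is a description and was not tested. Sub-cluster 2 may hold more than 1 cell type, and its mix of cells in each sample was not tested.

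The FLT1 ligand PGF was higher in both injured samples in endothelial-like cells, with a log2 fold change of 1.78. It was lower in both injured samples in fibroblast-like cells (-0.70) and in smooth muscle and pericyte-like cells (-1.34). Over all genes tested, both injured samples were above both normal ones for 24.4% in endothelial-like cells. Both were below for 28% in fibroblast-like and 20.6% in smooth muscle and pericyte-like cells. None of the 3 PGF values passed edgeR over all 4 samples. With 1 sample left out they ran from 1.05 to 3.42, from -1.45 to -0.20 and from -1.83 to -0.60, and the smooth muscle and pericyte-like value passed without Normal 2 (-1.83, edgeR adjusted p = 3.72e-10, against 3.72e-10 to 0.999 over 8 alternatives). The difference of the endothelial-like from the fibroblast-like change was 2.35 and from the smooth muscle and pericyte-like change 2.67 on the log2(CPM + 1) scale, and these pairs too were picked for their directions and not tested. In endothelial-like cells PGF was at most 7.88 CPM, so its change rests on few UMIs.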

How the results depend on the processing

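Of 874 alternative values of 78 results, 850 kept their direction and 24 turned. ESM1 was lower in the injured samples under every alternative in all cells and in endothelial-like, capillary-like and sub-cluster 2 cells, but in arterial-like cells it turned without Normal 2. With 2 samples a group, a sample left out leaves a lone sample assumed to vary like the other group, and the self-test shows that 2-fold changes were mostly missed at this size. The cause of the differences between settings was not tested.

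Without a filter on low counts, the log2 fold change of ESM1 passed the threshold at -2.99 in all cells, -1.51 in capillary-like, -1.56 in arterial-like and -4.20 in sub-cluster 2 cells, as did VEGFA in epithelial-like cells at -0.99. The genes called were then 67 in all cells, 21 in endothelial-like, 126 in capillary-like, 100 in venous-like, 142 in arterial-like and 183 in sub-cluster 2 cells. With DESeq2, ESM1 passed at -3.02 in all cells, -2.15 in endothelial-like and -4.09 in sub-cluster 2 cells, KDR at -1.14 in all cells and VEGFA at -1.09 in epithelial-like cells. The genes called were 444, 57, 25, 9, 29 and 33 in the same order, with 1 of the VEGF list in endothelial-like cells. At sub-clustering resolutions 0.8 and 0.2, KDR in capillary-like cells turned to -0.11 and -0.15, and 3 genes were called at 0.2.

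Replicate numbers did not pair the samples, since the labels name no shared animal and only 2 pairs exist (correlation of deviations 0.153). With the replicate block, ESM1 passed at -3.12 in all cells and -4.32 in sub-cluster 2 cells, and the genes called were 276 in all cells, 3 in endothelial-like, 2 in capillary-like, 4 in venous-like, 5 in arterial-like and 6 in sub-cluster 2 cells.

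The difference in cells with an ESM1 UMI was -13.0 points at 2000 UMIs and -16.4 unthinned, and for both transcripts -3.80 and -9.52. For KDR it turned to 1.39 unthinned. ESM1 relative to KDR was -1.57 with a pseudocount of 50 and -1.64 in capillary-like cells. Between cells with and without ESM1, capillary-like cells alone gave a KDR log2 fold change of 0.33, 63 genes called and 2 of the list.

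With 1 sample left out, the genes called ran from 1 to 137 in all cells, 4 to 14 in endothelial-like, 0 to 196 in capillary-like, 0 to 41 in venous-like, 7 to 453 in arterial-like and 36 to 454 in sub-cluster 2 cells, and from 367 to 600 between cells with and without ESM1. KDR ran from -0.66 to 0.24 in endothelial-like, -0.24 to 0.38 in capillary-like, -0.16 to 0.92 in venous-like, 0.16 to 1.32 in arterial-like and -1.33 to -0.35 in sub-cluster 2 cells, and its share of cells from -2.7 to 2.32 points. ESM1 ran from -2.24 to 0.25 in arterial-like and -5.74 to -3.31 in sub-cluster 2 cells. VEGFA ran from -1.19 to -0.94 in epithelial-like, -0.75 to 0.13 in fibroblast-like, -1.76 to 0.59 in macrophage-like and -0.19 to 1.02 in smooth muscle and pericyte-like cells, and VEGFC from -0.093 to 1.35 in fibroblast-like and -0.15 to 0.55 in smooth muscle and pericyte-like cells. In endothelial-like cells the ranges were -0.61 to 0.72 for ADM, -0.74 to 0.33 for DLL4, -0.035 to 0.68 for DUSP5, -0.72 to 0.28 for HEY2, -0.63 to 0.37 for NOS3, -0.58 to 1.18 for NR4A2, -0.62 to 0.13 for UNC5B and -1.16 to 0.78 for VAV3. VEGFC in smooth muscle and pericyte-like cells was -0.0071 without Injury 2.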
